A study of Mus musculus with 6 samples.

Results

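*Pitpnc1* lost DNA methylation at many separate places inside its introns when lung endothelial cells (EC) of infant mice were compared with those of young adult mice. The deposited list of differentially methylated regions (DMRs) held 18,333 DMRs, and 51 of them had their midpoint in the gene body of *Pitpnc1*, at chr11:107207892-107470720 of the mouse build GRCm38 (mm10). In each of these 51 DMRs the young adult EC were less methylated than the infant EC. The median level fell from 64.6% in the infant group to 26.5% in the young adult group, and the largest loss took a DMR near the start of the first intron from 80.1% to 15.9%.

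The study compared EC that had been sorted by flow cytometry from the lungs of C57BL/6N mice at 2 ages. The infant group held 3 samples from mice aged 8 to 10 days, and the young adult group held 3 samples from mice aged 8 to 12 weeks. The methods give the animals as female. The sort kept cells positive for CD31 and CD34 and negative for PTPRC, LYVE1, LY76, PDPN and propidium iodide, and the labels name no transgene and no treatment. The 3 samples of each group are described as EC of 3 mice. Methylation was measured genome-wide by T-WGBS, a form of bisulfite sequencing whose libraries are made with a transposase. Bisulfite turns cytosines into uracil unless they are methylated, and the level of a CpG is the percentage of reads that still show C there.

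Each value is the authors' mean for 1 DMR in 1 group of 3 samples, so no spread between samples, no depth behind a DMR and no test could be had here. Because a level is a mean over cells, a shift within cells and a shift in the kinds of cells sorted cannot be told apart. The label of the cells could not be checked here against marker genes, since the list holds methylation only. The paper reports its own check of the sorted cells by quantitative PCR of marker genes. The regions were chosen by the same 2 group means that are given below, as each had passed the authors' test on them, and the gene was taken up for its number of DMRs. The counts, the directions and the sizes of the losses are therefore a description. Of all listed DMRs, 45.9% were losses, and nothing is read from the 51 of 51 here against that share.

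PITPNC1 belongs to the phosphatidylinositol transfer proteins, which take up a single lipid molecule in a hydrophobic pocket and carry it between membranes. It is a soluble protein of the family's class II that binds phosphatidic acid as well as phosphatidylinositol, and 14-3-3 proteins bind to it. Phosphatidylinositol is the starting lipid for the phosphoinositides, which serve as membrane marks and as the substrate of phospholipase C in receptor signalling. In vertebrate genomes most methylation sits at CpGs, CpG-rich promoters are mostly unmethylated, and enhancers, which can lie inside introns, tend to be low in methylation when they are in use.

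The DMRs are numbered here from the transcription start site (TSS), from DMR 1 to DMR 51. *Pitpnc1* lies on the minus strand, so that DMR 1 has the highest coordinate. Sequences were read from the plus strand of the reference genome, 5′ to 3′, from the C of the first to the G of the last CpG of a DMR, with each CpG in capitals. The first set shows the 3 largest losses, in which the CpGs were spread unevenly. DMR 6 lies at chr11:107452315-107452483, DMR 21 at chr11:107379712-107379832 and DMR 29 at chr11:107364182-107364439.
DMR 6: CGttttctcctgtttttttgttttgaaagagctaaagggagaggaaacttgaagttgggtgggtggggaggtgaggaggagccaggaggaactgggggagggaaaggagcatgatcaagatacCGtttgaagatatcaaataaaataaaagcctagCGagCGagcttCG
DMR 21: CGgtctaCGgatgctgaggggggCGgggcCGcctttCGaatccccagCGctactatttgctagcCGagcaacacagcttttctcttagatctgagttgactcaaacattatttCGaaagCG
DMR 29: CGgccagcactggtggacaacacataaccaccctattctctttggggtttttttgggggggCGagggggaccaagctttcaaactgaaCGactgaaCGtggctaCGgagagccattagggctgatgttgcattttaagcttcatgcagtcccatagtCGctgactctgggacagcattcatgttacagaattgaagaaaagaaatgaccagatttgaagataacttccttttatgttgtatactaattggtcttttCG

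The second set shows the DMR with the most CpGs and the 2 DMRs with the lowest levels. DMR 24 lies at chr11:107378467-107378744, DMR 27 at chr11:107366339-107366517 and DMR 33 at chr11:107341620-107341650. The last of these packs 4 CpGs into 31 bp.
DMR 24: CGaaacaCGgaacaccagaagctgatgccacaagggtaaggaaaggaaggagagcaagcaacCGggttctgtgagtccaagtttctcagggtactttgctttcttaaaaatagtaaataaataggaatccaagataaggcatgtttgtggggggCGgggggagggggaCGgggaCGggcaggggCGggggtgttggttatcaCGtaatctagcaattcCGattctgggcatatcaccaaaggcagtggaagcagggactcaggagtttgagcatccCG
DMR 27: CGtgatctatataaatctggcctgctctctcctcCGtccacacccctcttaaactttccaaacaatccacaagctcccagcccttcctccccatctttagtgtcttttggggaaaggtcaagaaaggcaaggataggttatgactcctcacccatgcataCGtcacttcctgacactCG
DMR 33: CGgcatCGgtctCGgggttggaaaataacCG

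The third set shows the closest pair of DMRs and both ends of the series along the gene. DMR 8 lies at chr11:107449494-107449587 and DMR 9 at chr11:107449262-107449474, 19 bp apart. DMR 1 lies at chr11:107468256-107468369 and DMR 51 at chr11:107225960-107226012.
DMR 8: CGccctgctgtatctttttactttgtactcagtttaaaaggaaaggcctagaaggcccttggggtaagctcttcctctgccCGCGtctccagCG
DMR 9: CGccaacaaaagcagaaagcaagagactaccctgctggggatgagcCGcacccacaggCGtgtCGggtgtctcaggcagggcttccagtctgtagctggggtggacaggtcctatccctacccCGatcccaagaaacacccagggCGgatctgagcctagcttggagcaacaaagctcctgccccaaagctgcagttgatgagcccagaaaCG
DMR 1: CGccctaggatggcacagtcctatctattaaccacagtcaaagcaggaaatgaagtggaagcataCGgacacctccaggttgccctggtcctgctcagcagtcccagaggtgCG
DMR 51: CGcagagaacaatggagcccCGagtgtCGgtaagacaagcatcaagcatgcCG

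The DMRs lay along almost the whole gene and in no exon (plot of methylation along the gene). *Pitpnc1* is 262.829 kb long, and its curated RefSeq transcript has 10 exons and 9 introns. All 51 DMRs fell within introns, and none touched an exon of any annotated transcript of the gene. The nearest was DMR 51, which ended 219 bp from an exon, and 3 DMRs lay within 1 kb of one. Together the DMRs held 240 CpGs in 9576 bp, which is 6.47% of the 3710 CpGs and 3.64% of the bases of the gene. They held 25.1 CpGs per kb, against 14.1 in the gene. Their definition favours this, because each DMR begins and ends at a CpG and had to hold at least 3 CpGs to be listed.

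**Figure D1:**
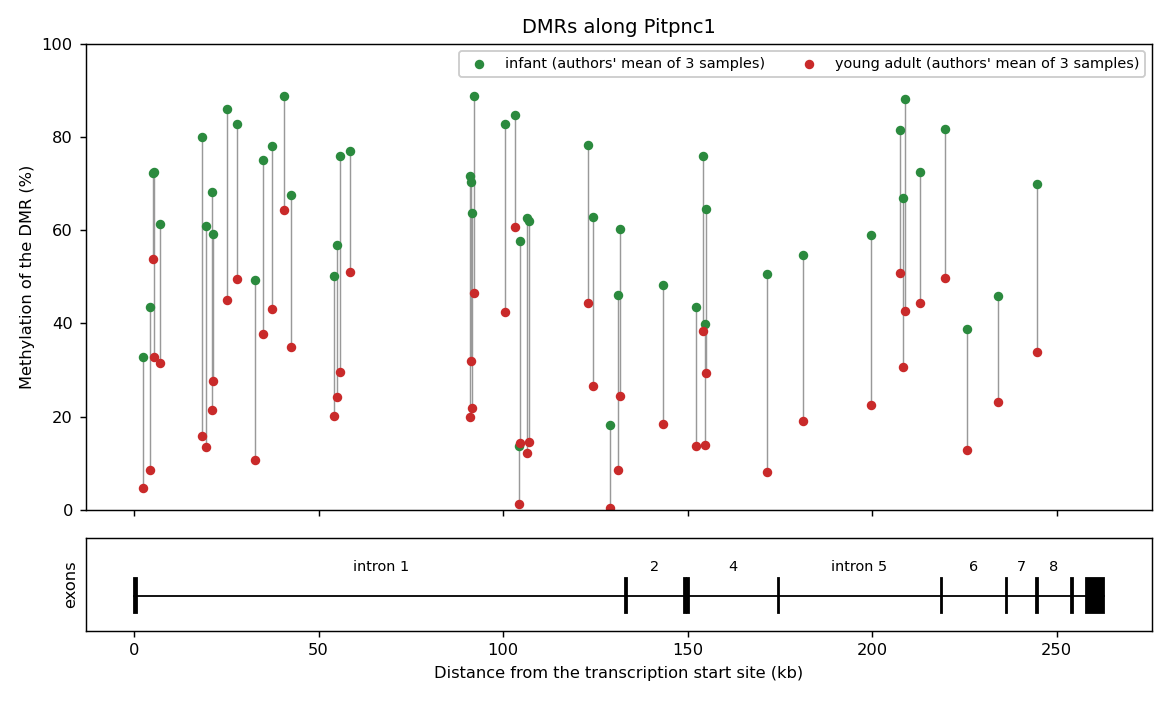
Methylation of the 51 DMRs of *Pitpnc1* in percent (y axis) against the distance of their midpoints from the TSS in kb (x axis), with infant (green) and young adult (red) group means joined by a line for each DMR and the exons drawn as black boxes below. Each red point lies under its green point, and the longest line belongs to DMR 6, from 80.1% to 15.9%.

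Intron 1 took most of them. This first intron, 132330 bp long, held 35 DMRs, which is 68.6% of the DMRs against 50.3% of the length and 50.9% of the CpGs of the gene. Of its CpGs, 9.01% lay in a DMR. Introns 5 and 4 followed with 6 and 5 DMRs, and intron 6 held 3. Introns 2 and 8 held 1 each, and introns 3, 7 and 9 held none. Per 10 kb, intron 1 had 2.64 DMRs, intron 4 had 2.04, intron 6 had 1.71, intron 5 had 1.36, intron 8 had 1.06 and intron 2 had 0.635. Intron 4 was thus near to intron 1 in density, with 7.78% of its CpGs in a DMR, while intron 5, which is longer, had 4.27%.

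**Figure D2:**
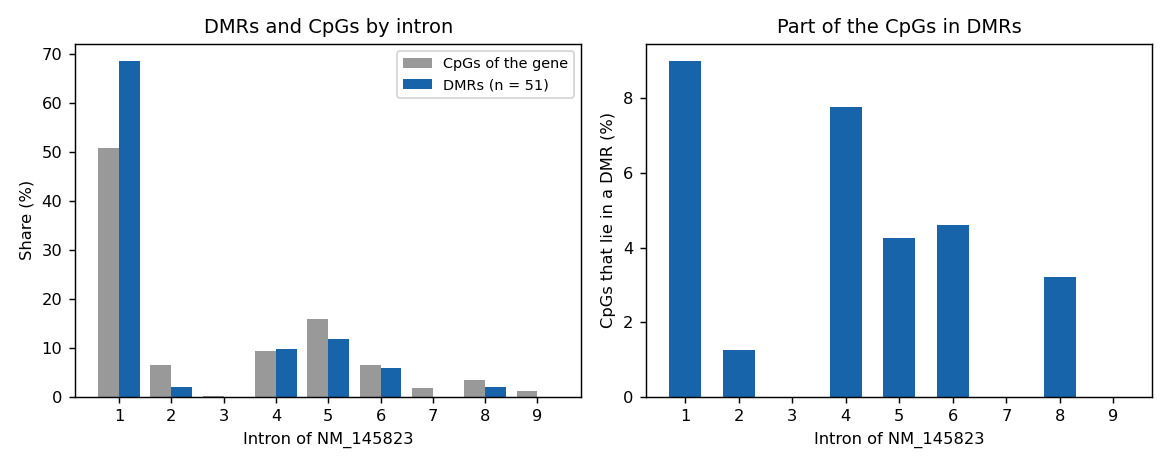
Left, the share in percent of the CpGs of *Pitpnc1* (grey) and of its 51 DMRs (blue) that fell in each of the 9 introns. Right, the percent of the CpGs of each intron that lay in a DMR, which was 9.01% in intron 1 and 7.78% in intron 4.

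The levels in the introns overlapped. In intron 1 the median went from 67.6% to 26.5% with age, and in intron 5 from 69.8% to 36.6%. Intron 4 began lower, with medians of 50.6% and 14.0%, and so did intron 6, with 45.9% and 23.1%. The median difference was nearly the same in introns 1, 4 and 5, at -36.3, -35.1 and -36.04 percentage points, and was -26.1 points over the 3 DMRs of intron 6. Over the 51 DMRs the level did not follow the distance from the TSS: Spearman's correlation was -0.12 for infant and -0.02 for young adult methylation. Those points share the same 6 samples and are not independent.

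Among the 51 DMRs the infant level ranged from 13.6% to 88.9% and the young adult level from 0.417% to 64.4%. The middle of the infant values lay between 52.7% and 76.6% and that of the young adult values between 14.4% and 42.6% (lower and upper quartile). An infant level above 50% was found in 40 DMRs and one above 80% in 10. A young adult level below 20% was found in 18 DMRs and one below 10% in 6. Most of the DMRs thus went from a largely methylated state to an intermediate one rather than to an unmethylated one.

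The 2 levels went together (plot of infant against young adult levels). Over the 51 DMRs, Pearson's r between them was 0.85 and Spearman's correlation was 0.86, which describes regions that were listed for a minimum difference in the same samples. Young adult EC kept a median of 42.5% of the infant level, and 33 DMRs kept less than 50%. The loss was at least 20 percentage points in 48 DMRs, at least 30 in 38, at least 40 in 14 and at least 50 in 3.

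**Figure D3:**
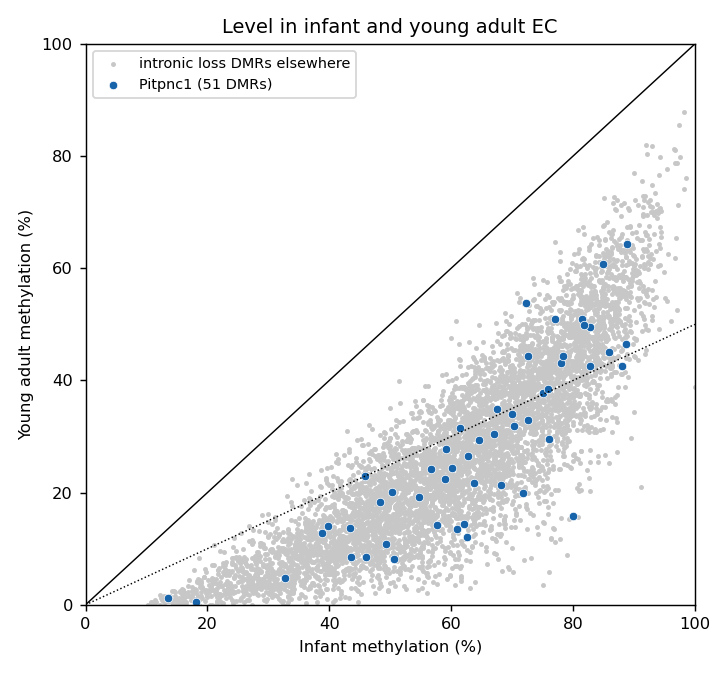
Young adult (y axis) against infant (x axis) methylation in percent for the 51 DMRs of *Pitpnc1* (blue) and the 6,290 intronic loss DMRs elsewhere (grey). The solid line marks equal levels and the dotted line a level of 50% of the infant one; all blue points lie under the solid line and 33 under the dotted one.

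DMR 6 stood furthest from the line of equal levels. It lies 18.3 kb from the TSS, is 169 bp long with 5 CpGs, and went from 80.1% to 15.9%, a difference of -64.2 points. Of its bases, 81.7% were marked as repeat in the reference genome. In the 5 DMRs of the gene that were mostly repeat, the median difference was -41.9 points, against -35.0 points in the 46 others. Whether repeats affected the measured levels was not tested. DMR 21, with 9 CpGs in 121 bp, went from 71.8% to 19.97%, and DMR 29, with 7 CpGs in 258 bp, from 62.5% to 12.1%. The differences of these were -51.8 and -50.4 points. All 3 lie in intron 1, and all 3 began above 60% and ended at or below 20%.

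The smallest losses were of 2 kinds. DMR 27 was already at 13.6% in infant EC and went to 1.26%, and DMR 33 went from 18.1% to 0.417%. These 2 were the lowest of all DMRs of the gene at both ages. DMR 3 instead went from 72.2% to 53.8%, a difference of -18.5 points, and kept most of its methylation. DMR 27 lies only 181 bp from DMR 28, which went from 57.6% to 14.3%, so that neighbouring stretches of intron 1 had unlike levels in infant EC. DMR 26, the neighbour of DMR 27 on the other side, went from 84.8% to 60.8% and so differed from it even more.

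The closest pair differed less. DMR 8 and DMR 9, separated by 19 bp, went from 68.3% to 21.4% and from 59.1% to 27.7%. Between neighbours at most 500 bp apart (13 pairs), the median absolute difference of the infant levels was 14.4 points, and between neighbours further apart (37 pairs) it was 14.0 points. For young adult levels these medians were 13.0 and 14.9 points. The medians for close and for distant pairs thus differed by less than 2 points at both ages.

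The DMRs with more CpGs lost more. The median difference was -30.1 points in the 14 DMRs with 3 CpGs, -34.5 points in the 16 with 4 CpGs and -37.4 points in the 20 with 5 to 9 CpGs. DMR 24, which had 10 CpGs, went from 88.7% to 46.4%, a difference of -42.3 points, and DMR 5, which had 8 CpGs, went from 61.4% to 31.6%. Over the 51 DMRs, Spearman's correlation between the number of CpGs and the signed difference was -0.42. A DMR with more CpGs may also rest on more averaged and tested values. The CpGs were counted in the reference sequence, so the number tested in a DMR may differ.

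The most DMRs within gaps of at most 500 bp stood together in the second part of intron 1. DMR 21, DMR 22, DMR 23 and DMR 24 lie within 1366 bp, at chr11:107378467-107379832, and hold 32 CpGs. Weighted by CpGs, this stretch went from 75.2% to 31.2%. DMR 22 went from 70.3% to 31.9% and DMR 23 from 63.7% to 21.8%, so that each of the 4 DMRs lost at least 38 points. All 4 overlapped a window that met the criteria of a CpG island (200 bp, GC content of at least 50%, ratio of observed to expected CpGs above 0.6). Of the 51 DMRs, 9 overlapped such a window (17.6%), against 9.92% of the intronic loss DMRs elsewhere and 13.8% of all DMRs. The 9 include the 4 DMRs of this stretch. The DMRs of *Pitpnc1* were also wider, with a median of 169 bp against 137 bp in the intronic loss DMRs elsewhere. The 9 had medians of 70.3% (infant) and 31.6% (young adult), and the 42 others had 62.6% and 24.3%.

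Along the gene the DMRs came in runs. With DMRs at most 10 kb apart counted as a run, there were 9 runs of 1 to 11 DMRs. The longest by number, 11 DMRs in 24.4 kb, ran from DMR 6 to DMR 16, with medians of 75.2% and 34.9%. The run from DMR 21 to DMR 30 held 10 DMRs with 60 CpGs in 16.2 kb, with medians of 66.99% and 20.9%, and had the largest median difference of the 9 runs, -42.1 points. The run from DMR 43 to DMR 50, in introns 5 and 6, held 8 DMRs in 34.4 kb, with medians of 69.8% and 36.6%. The number of runs depended on the distance allowed and was 26 at 2 kb and 2 at 20 kb.

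Between the runs lay stretches with no listed DMR. The median gap between neighbouring DMRs was 2001.5 bp, and the widest was 32.5 kb, between DMR 20 and DMR 21 in intron 1. That gap held 500 CpGs, 15.4 per kb, and so was no poorer in CpGs than the gene. The last 18.1 kb of the gene, past DMR 51, held 242 CpGs and no DMR. Whether the CpGs in these stretches were covered deeply enough to be listed is unknown here, so a gap does not show that methylation was equal at both ages.

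The 300 bases around the TSS held no DMR, but the wider promoter (1 kb upstream to 100 bp downstream) held 1, which is described further on. The RefSeq promoter sequence of *Pitpnc1* (chr11:107470671-107470970 on the minus strand, GRCm38.p6) has 23 CpGs and a GC content of 61.7%. Its sequence, with each CpG in capitals, is given 5′ to 3′ along the gene.
*Pitpnc1* promoter: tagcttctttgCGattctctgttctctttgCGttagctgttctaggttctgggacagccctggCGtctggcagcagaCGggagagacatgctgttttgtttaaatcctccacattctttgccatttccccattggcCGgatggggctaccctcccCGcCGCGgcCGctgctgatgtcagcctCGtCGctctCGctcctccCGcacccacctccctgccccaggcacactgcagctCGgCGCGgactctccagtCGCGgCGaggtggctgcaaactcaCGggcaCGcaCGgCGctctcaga

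The members closest to the limit of the gene were DMR 1, inside it, and a DMR just upstream, outside it. DMR 1 has its midpoint 2408 bp downstream of the TSS and went from 32.8% to 4.76%. The upstream DMR, at chr11:107471248-107471255, lies 527 bp before the TSS and went from 27.4% to 2.02%. Within the gene, DMR 27 and DMR 33 were the DMRs with an infant level below that of DMR 1, and the upstream DMR was lower than DMR 1 at both ages. The upstream DMR is only 8 bp long, and its 3 CpGs stand in capitals within 200 bp of plus strand sequence, chr11:107471152-107471351, which runs on into a CA and GA repeat.
Upstream window: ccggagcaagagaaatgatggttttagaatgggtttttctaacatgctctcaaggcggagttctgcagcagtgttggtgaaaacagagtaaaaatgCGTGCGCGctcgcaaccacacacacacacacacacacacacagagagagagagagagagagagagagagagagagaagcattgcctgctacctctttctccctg

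Beyond this the nearest DMRs were far away. The next DMR upstream lay 413 kb from the gene, in *Cacng5*, a calcium channel gamma subunit gene, and was a gain, from 63.2% to 83.0%. Past the 3′ end, the nearest DMR lay 245 kb away and was a loss, from 69.2% to 28.5%. These stretches held 5250 and 3335 CpGs. Within 500 kb upstream there were 2 DMRs, and within 500 kb past the 3′ end there were 21, all of them losses. The losses of *Pitpnc1* and the upstream DMR thus lay in a block that was set off by long stretches without a listed DMR on both sides.

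Of the 16 other protein-coding genes that lie at least in part within 500 kb, 11 held no DMR. *Smurf2*, which encodes an E3 ubiquitin ligase of TGFβ receptor and SMAD proteins, held 16 losses with medians of 68.9% and 28.7%. *Pecam1*, which encodes CD31, the surface protein used in the sort, held 15 losses with medians of 60.5% and 18.6%. Counts here cover whole gene bodies, and most of *Pecam1* and of *Prkca* lies beyond 500 kb. *Ddx5*, an RNA helicase gene, held 1 loss. *Cacng5* and *Prkca*, which encodes protein kinase C alpha, held 1 gain each. No DMR lay in *Nol11*, *Psmd12*, *Helz* or *Bptf*, the other neighbours named here.

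The nearest promoter named in the deposited list was that of *Pitpnc1* for 35 of the 51 DMRs. For the other 16, from DMR 36 to DMR 51, it was the promoter of *Nol11*, a gene for a nucleolar protein, which lies past the 3′ end of *Pitpnc1*. A count by nearest promoter would therefore give *Pitpnc1* 36 DMRs, the upstream DMR included, and would give *Nol11* 16 DMRs of which none lies in its gene body.

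Other transcripts share the locus. Of the 4 long noncoding RNA genes on the opposite strand, 3 held DMRs. *Gm11716* held 3, with medians of 46.1% and 8.44%, *Gm11714* held 3, with medians of 78.0% and 43.1%, and *Gm11713* held 1. DMR 13, which went from 75.2% to 37.8%, touched an exon of *Gm11714* and was the only one of the 51 that touched an exon of any gene. A predicted transcript of *Pitpnc1* starts 122.538 kb downstream of the curated TSS, and DMR 31, which went from 78.3% to 44.4%, has its midpoint 482 bp downstream of that start.

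By the number of intragenic DMRs *Pitpnc1* was at rank 5 of 21,774 protein-coding genes (plot of DMRs against gene length). Above it were *Prkce* (protein kinase C epsilon) with 65, *Smad6* (an inhibitory SMAD) with 61, *Arhgef3* with 60 and *Prickle2* (planar cell polarity) with 54. Below it were *Cyth3* (an Arf exchange factor) with 50, *Epas1* (HIF-2 alpha) with 46, *Sema6a* (a semaphorin) with 45, and *Aff3* and *Kitl* (the ligand of the KIT receptor) with 44 each. More than 5 DMRs were found in 2.23% of protein-coding genes. Among the 56 genes with at least 20 DMRs, 39 had losses only.

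**Figure D4:**
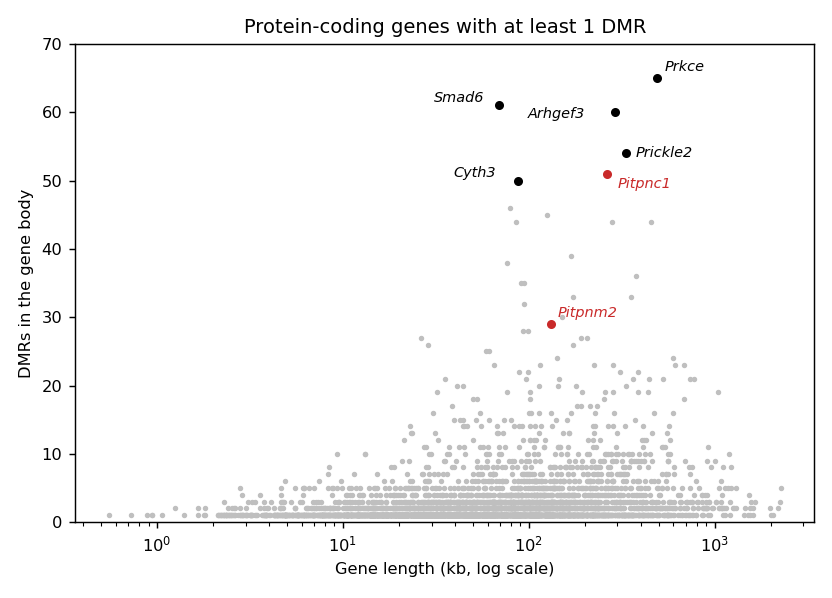
Number of DMRs in the gene body (y axis) against gene length in kb on a log scale (x axis) for the protein-coding genes with at least 1 DMR (grey), with *Pitpnc1* and *Pitpnm2* in red and 5 further genes with at least 50 DMRs in black. *Pitpnc1*, with 51 DMRs in 262.829 kb, sits near *Arhgef3* with 60.

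The order was another one when counted by length. Per 100 kb *Pitpnc1* had 19.4 DMRs, which placed it at rank 100 of the 10,008 genes of at least 20 kb. *Smad6* had 88.4 per 100 kb, *Epas1* 57.8 and *Cyth3* 56.9, while *Arhgef3* had 20.7, *Prickle2* 16.1 and *Prkce* 13.3. Among the 555 genes of 200 to 350 kb, the median number of DMRs was 1, the upper quartile was 4 and the highest number was 60. *Pitpnc1* was thus far above most genes of its length but much less dense than the shorter genes beside it in the order.

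In their levels the DMRs of *Pitpnc1* were near the middle of intronic losses. The 6,290 intronic loss DMRs elsewhere had medians of 62.0% (infant) and 25.6% (young adult) and a median difference of -32.8 points, and kept a median of 42.7% of the infant level. A young adult level below 20% was found in 37.4% of them, against 35.3% in *Pitpnc1*. A difference of at least 30 points was found in 62.8% of them, against 74.5%. The DMRs of *Pitpnc1* held more CpGs: 27.5% of them had the minimum of 3 CpGs, against 52.2% elsewhere, and 41.2% had at least 5, against 26.4%. Among genes with at least 20 DMRs, the medians most like those of *Pitpnc1*, by the summed absolute difference of both group medians, were those of *Mcc* (64.7% and 26.9%, 22 DMRs), *Tmcc3* (64.6% and 24.9%, 44 DMRs) and *Msi2* (65.8% and 27.0%, 36 DMRs). The summed differences were 0.593, 1.60 and 1.76 points.

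Short motifs of transcription factor families were searched as letters, on both strands, in 200 bp windows centred on the DMRs. Matches of different motifs may share bases. AGATAA, the letters of GATA factors, occurred at 12 of the 51 DMRs (23.5%), against 13.6% of the intronic loss DMRs elsewhere and 11.7% of all DMRs. CAGGAAG of ETS factors occurred at 8 (15.7%, against 11.1% and 10.9%), and GGGNGTG of KLF factors at 10 (19.6%, against 15.6% and 14.3%). TGGGAA of RBPJ occurred at 5 (9.80%, against 19.2% and 19.0%), CANNTG, the E-box, at 28 (54.9%, against 65.9% and 65.98%), and TGTTTAC of forkhead factors at 0 (against 6.06% and 4.36%). In DMR 19, which is 513 bp wide, TGTTTAC does stand on the minus strand at bases 126 to 132, outside the 200 bp window. TGANTCA of AP-1, GGAATG of TEAD and AACAAT of SOX factors occurred at 5 DMRs each (9.80%), against 6.88%, 11.3% and 9.92% of the intronic loss DMRs elsewhere and 6.54%, 11.7% and 10.3% of all DMRs. GGCGCC of SMADs in the BMP pathway occurred at 1 (1.96%, against 0.954% and 1.65%).

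These counts are of letters and show no binding. The 12 DMRs with AGATAA had medians of 66.8% (infant) and 20.9% (young adult), and the 39 without had 64.6% and 27.7%. The median difference was -41.1 points with AGATAA and -34.9 without. It was -40.9 points in the 5 DMRs with TGANTCA and -35.4 in the 46 without. In the 5 DMRs with GGAATG it was -24.5 points, against -35.8 in the 46 without. With and without the motif it was -38.6 and -35.1 points for TGGGAA, -33.8 and -35.7 for CAGGAAG, and -33.3 and -35.7 for AACAAT. For GGGNGTG it was -34.5 and -35.6 points, and for CANNTG -34.4 and -35.9. The only DMR with GGCGCC had -28.1 points, against a median of -35.7 without. Within the sequences shown above, AGATAA stands at bases 132 to 137 of DMR 24 and at bases 218 to 223 of DMR 29. In DMR 21, the letters TGANTCA stand at bases 97 to 103. In DMR 27, CAGGAAG stands on the minus strand at bases 166 to 172, AACAAT at bases 61 to 66 and GGGNGTG on the minus strand at bases 39 to 45. DMR 27 was nearly free of methylation in young adult EC, but the 8 DMRs with CAGGAAG had medians of 63.9% and 22.4%. The 43 without it had 64.6% and 26.5%.

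In the family of phosphatidylinositol transfer proteins *Pitpnm2* came next. The list held 5 further genes, of which 2 had losses and 1 a gain. *Pitpnm2*, a membrane-associated member of the family, held 29 DMRs in its 131.222 kb at chr5:124118689-124249910, all of them losses, with medians of 59.5% and 25.1%. Its infant levels ranged from 27.0% to 93.2% and its young adult levels from 3.83% to 69.5%, and per 100 kb it had 22.1 DMRs, close to the 19.4 of *Pitpnc1*. Of these 29, 24 were intronic, 3 lay in exons and 2 in promoters, when the transcripts of all genes are counted. Placed in the same way, *Pitpnc1* had 49 intronic DMRs, 1 in an exon (DMR 13) and 1 in a promoter (DMR 16), the last 2 through *Gm11714*. *Pitpna*, which encodes a soluble class I protein, held 2 losses, and *Pitpnm3* held 1 gain, from 59.6% to 79.6%. *Pitpnb* and *Pitpnm1* held none.

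The 7 lists covered phosphatidylinositol transfer proteins, phosphoinositide metabolism, partners of PITPNC1, and other lipid transfer and contact site proteins. Over their 113 other genes, 32 (28.3%) held at least 1 loss and 30 (26.5%) at least 1 gain, against 9.72% and 12.8% of all protein-coding genes. The listed genes were longer, with a median of 61.6 kb against 17.2 kb, and length was not matched. More than 5 DMRs were found in 9 of the 113 genes (7.96%), against 2.23% of all protein-coding genes, again without matching for length. By list, the share of genes with a loss was at least 29.4%, except among the phosphoinositide kinases, where it was near the 9.72% of all protein-coding genes. The share with a gain ran from 0% among the partners of PITPNC1 to 55.6% for phospholipase C and its effectors. The genes of that last list had a median length of 158 kb.

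Among the partners of PITPNC1, 3 of 8 genes held losses and none a gain, namely the 14-3-3 genes *Ywhab* and *Ywhaz* with 3 each and *Agtrap*, which encodes the angiotensin receptor-associated protein ATRAP, with 1. Of 16 genes that make phosphatidic acid or phosphatidylinositol, 5 held losses and 6 held gains. *Cds2*, which makes the CDP-diacylglycerol from which phosphatidylinositol is formed, held 3 losses and 1 gain. The diacylglycerol kinase genes *Dgkh* and *Dgkz* held 4 and 3 losses.

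Of 25 phosphoinositide kinase genes, 3 held losses and 5 held gains. *Pik3cb*, a catalytic subunit of PI3-kinase, held 12 losses, and *Pik3c2b*, a class II PI3-kinase, held 6 gains, with medians of 30.9% (infant) and 58.7% (young adult). *Pik3r1*, the regulatory subunit p85 alpha, held 4 losses, and *Pip4k2a*, a lipid kinase, held 4 gains. Of 24 genes for phosphatases of phosphoinositides or inositol phosphates, 8 held losses and 5 gains. *Inpp5a* led with 17 DMRs, of which 16 were losses. *Inpp5d*, which encodes SHIP1, held 3 losses and 3 gains, and *Inpp5b*, *Inpp5k* and *Synj1* held 4 losses each.

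Of 18 genes of phospholipase C and its effectors, 6 held losses and 10 held gains. *Plcb4*, a phospholipase C beta gene, held 7 losses and 2 gains, and the inositol trisphosphate receptor genes *Itpr2* and *Itpr1* held 8 and 7. Both directions occurred in those receptors, with 4 losses and 4 gains in *Itpr2* and 1 loss and 6 gains in *Itpr1*. Of 17 genes of other lipid transfer and contact site proteins, 5 held losses and 3 gains. *Sec14l1* held 15 losses. Among the genes related to oxysterol-binding protein, *Osbpl10* and *Osbpl1a* held 4 and 3 gains, and *Osbpl8* held 3 losses.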

How the data were processed

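Per the study's methods, the authors used 30 ng of DNA, aligned reads with BWA (0.6.1) to bisulfite-converted mm10, removed duplicates and called unsmoothed methylation in R (3.2.2) with bsseq. They listed regions of at least 3 consecutive CpGs, each with p under 0.05 by t-test and with 8-fold coverage in at least 2 samples of a group, and asked for a difference of 10% or more between the means. The deposited values are group means as a fraction, with a direction and a nearest promoter. The latter served only for an alternative count.

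Here the fractions were turned into percent, and each difference is young adult minus infant. Regions were placed by midpoint on RefSeq of GRCm38.p6. Of the 18,333 regions, 18,333 began and ended at a CpG. Python (3.11.15), pandas (2.3.3) and pysam (0.24.0) were used, and the procedures were tested on simulated data.

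The members and lists were chosen with earlier results of these data known. Named DMRs are the 3 largest and 3 smallest losses, any gain, the 3 with the most CpGs, the first, the last and the closest pair. The other DMRs named were chosen after their values were seen. Named genes are neighbours within 500 kb, 5 genes on either side in rank, the 3 most alike, the family, and the 3 of each list with the most DMRs. Because group means were the values used, no test was run.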

Additional observations from a re-analysis of the deposited data

How the results depend on the processing

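No paired analysis was possible because the values used were group means, and leaving out a replicate was not run for the same reason. Of 21 alternative values, 16 stayed close to the reported ones (counts within 1.5 times, medians within 1 SD over the DMRs) and 5 moved. With at least 5 CpGs per DMR, 21 DMRs of *Pitpnc1* and 15 in its intron 1 were left. With gaps of 2 kb and 20 kb the runs numbered 26 and 2, and by DMRs per 100 kb the rank was 100. The subsets and merged regions came from the same 51 losses, so they could hold no gain. Their median differences, and the mean weighted by CpGs, lay between -34.4 and -37.4 points. That is no separate check, because they share those regions. The 36 DMRs counted by nearest promoter, of which 35 are among the 51, were all losses. The depth behind a DMR is unknown, so the error of a level could not be given.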
